A study of Mus musculus with 9 samples.

Results

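Open chromatin of the mouse breast carcinoma line D2A1-d was mapped in 3 ATAC-seq libraries from cells that carried the non-targeting control (NTC), out of 9 libraries in the series. The 3 libraries were chosen by that label alone. The labels give genotype WT and treatment Untreated for them, although the cells had been transduced with the control construct, so they are control cells rather than cells never handled. The line was grown in medium with fetal bovine serum, and all 3 libraries come from this line. The labels call the samples biological replicates but do not say whether they came from separate cultures, so the spread given here is that between these samples and may be partly technical. The title of the series concerns the Mediator subunit MED4 and metastatic dormancy. The other 6 libraries carried hairpins against Med1. Their values were not used, and no comparison between hairpins is made.

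ATAC-seq uses a transposase that cuts DNA and adds sequencing adapters where chromatin is not wrapped tightly in nucleosomes. Promoters of active or poised genes and enhancers bound by transcription factors are such places, and silenced genes of other lineages usually are not. In the mammary gland, luminal cells make the keratins Krt8 and Krt18 and the adhesion proteins Cdh1 and Epcam, while Twist1, Snai1, Snai2 and Zeb1 encode factors that repress epithelial genes in mesenchymal cells. Runx2 is a bone-lineage factor that is also made in some breast carcinomas.

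The deposited table held 75936 peaks, each 501 bases wide, and its values were read counts scaled to a common depth, here called normalized counts. Because all peaks have the same width, levels of different peaks can be set side by side without a correction for length. The number of DNA copies of a region, and similar copies of a sequence elsewhere, can still shift a level. The reads in peaks were 46.4 M in NTC 1, 44.7 M in NTC 2 and 40.9 M in NTC 3, and the median peak held 231, 225 and 207 reads. A gene is called open at its start when the centre of a peak lay within 1 kb of a start site in RefSeq. For genes with no start in the table used, a peak within 1 kb of either end of the gene was counted, because their strand was not known. The same set of peaks serves all libraries of the series, those with Med1 hairpins included. A listed peak thus need not have been called in the NTC libraries, and the weakest hold only a few reads there. A gene without such a peak is one for which the table lists none, and that is not a measurement of 0. In these bulk samples, fewer cells with an open site and less opening per cell cannot be told apart.

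Promoters of 9 genes from the ends of this range are printed first, since the values that follow turn on which of them carried a peak. Each is the 250 bases before the start listed by RefSeq for GRCm38.p6, written 5′ to 3′ on the gene's strand. Capitals mark TATA boxes, CCAAT boxes and GC boxes, searched on both strands and spelled out with the counts over all promoters further on. A match describes the letters only. The genes were chosen after their values were seen. Twist1 (chr12:33957421-33957670, plus strand), Vim (chr2:13574061-13574310, plus), Fos (chr12:85473640-85473889, plus) and Junb (chr8:84978749-84978998, minus) had strong peaks. Runx2 (chr17:44814628-44814877, minus) and Krt18 (chr15:102027966-102028215, plus) had weaker ones. Krt8 (chr15:102004343-102004592, minus), Epcam (chr17:87635729-87635978, plus) and Csn2 (chr5:87699426-87699675, minus), which encodes beta-casein, had none within 1 kb.
Twist1: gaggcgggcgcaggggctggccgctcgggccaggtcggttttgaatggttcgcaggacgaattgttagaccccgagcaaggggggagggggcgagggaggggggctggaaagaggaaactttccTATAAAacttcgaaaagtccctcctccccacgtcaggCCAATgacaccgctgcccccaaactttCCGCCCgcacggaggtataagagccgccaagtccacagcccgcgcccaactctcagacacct
Vim: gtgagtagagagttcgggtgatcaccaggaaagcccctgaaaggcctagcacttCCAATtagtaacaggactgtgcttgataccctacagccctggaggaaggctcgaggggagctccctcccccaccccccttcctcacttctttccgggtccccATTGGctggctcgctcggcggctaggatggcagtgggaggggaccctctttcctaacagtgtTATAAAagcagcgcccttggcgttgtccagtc
Fos: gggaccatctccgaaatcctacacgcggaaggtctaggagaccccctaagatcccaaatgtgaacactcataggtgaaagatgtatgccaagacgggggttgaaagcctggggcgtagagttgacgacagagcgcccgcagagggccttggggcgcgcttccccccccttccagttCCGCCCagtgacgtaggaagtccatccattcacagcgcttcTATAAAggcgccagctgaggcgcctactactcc
Junb: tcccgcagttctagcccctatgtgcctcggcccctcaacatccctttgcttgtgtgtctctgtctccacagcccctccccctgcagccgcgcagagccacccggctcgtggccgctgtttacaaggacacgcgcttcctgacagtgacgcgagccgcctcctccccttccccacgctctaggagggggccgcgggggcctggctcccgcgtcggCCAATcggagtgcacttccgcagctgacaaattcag
Runx2: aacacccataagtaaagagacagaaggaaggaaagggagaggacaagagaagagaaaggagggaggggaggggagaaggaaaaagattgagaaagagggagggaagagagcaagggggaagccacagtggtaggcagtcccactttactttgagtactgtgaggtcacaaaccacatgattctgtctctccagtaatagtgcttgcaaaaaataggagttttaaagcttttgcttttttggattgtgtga
Krt18: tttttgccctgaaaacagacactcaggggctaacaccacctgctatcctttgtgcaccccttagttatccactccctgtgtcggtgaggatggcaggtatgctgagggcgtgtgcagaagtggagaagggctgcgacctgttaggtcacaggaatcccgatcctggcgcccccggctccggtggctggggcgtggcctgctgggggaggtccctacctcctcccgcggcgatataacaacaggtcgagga
Krt8: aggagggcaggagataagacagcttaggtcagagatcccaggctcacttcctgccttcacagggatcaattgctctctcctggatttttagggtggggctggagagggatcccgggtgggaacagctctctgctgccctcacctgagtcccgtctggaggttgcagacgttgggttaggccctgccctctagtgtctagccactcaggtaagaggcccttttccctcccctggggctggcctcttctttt
Epcam: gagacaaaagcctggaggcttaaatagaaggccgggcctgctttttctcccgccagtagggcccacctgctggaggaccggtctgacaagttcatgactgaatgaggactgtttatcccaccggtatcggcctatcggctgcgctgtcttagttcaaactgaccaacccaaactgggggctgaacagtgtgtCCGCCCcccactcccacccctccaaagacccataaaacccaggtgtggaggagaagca
Csn2: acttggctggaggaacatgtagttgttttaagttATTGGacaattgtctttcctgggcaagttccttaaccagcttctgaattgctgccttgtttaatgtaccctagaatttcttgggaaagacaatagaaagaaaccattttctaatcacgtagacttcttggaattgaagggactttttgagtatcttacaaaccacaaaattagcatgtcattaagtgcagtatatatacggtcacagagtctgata

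The basic helix-loop-helix factor gene Twist1 had a single peak, and it covered the promoter printed above. That peak (chromosome 12, 33957372 to 33957873) held 1770, 1861 and 1904 normalized counts in NTC 1, 2 and 3, a mean of 1845 ± 68.3 (SD, n = 3). The 3 libraries lay close together and all were above 1431, the median over all genes open at the start. The window of 300 bases around the Twist1 start held 27 CpG dinucleotides, and that of Krt8 held 6.

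The intermediate filament gene Krt8 had 5 assigned peaks, and none lay within 1 kb of its start. All were intergenic, with means from 645 to 1240 normalized counts, and the nearest was centred 1152 bases from the start, upstream of the promoter printed above. Its neighbour Krt18, whose product pairs with that of Krt8, had a weak peak over its start. That peak held 178, 211 and 239 normalized counts, a mean of 209 ± 30.6 (SD, n = 3), against the median of 208 over all peaks. A second peak near the Krt18 start was weaker still, at 56.4, 59.9 and 66.6. The strongest peak assigned to Krt18 lay 17596 bases from its start (chromosome 15, 102045562 to 102046063) and held 3734, 3453 and 3272. Every distal peak assigned to Krt18 was higher than both peaks near its start in each of the 3 libraries.

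Runx2 also had distal peaks above its start peak, in a larger domain with 35 assigned peaks. Its start peak held 538, 513 and 533 normalized counts (528 ± 13.5, SD, n = 3), below the median of open genes. Its strongest peak lay inside the gene, near its far end (chromosome 17, 44500296 to 44500797), and held 6000, 5384 and 5129. With a mean of 5504 ± 448 it was the fourth strongest gene-body peak when 1 peak per gene was counted. A further 6 peaks inside Runx2 had means from 1028 to 1941, and the weakest assigned peak had 32.5. At the starts listed for them the 4 markers thus split: Twist1 was open at a high level, Runx2 and Krt18 at lower levels, and Krt8 was not. A peak at a start that the list lacks would be counted here as a gene-body peak, also in Runx2. The label of a breast carcinoma names an epithelial tumour, and the luminal keratin genes had no peak or a weak one within 1 kb of the start here while distal peaks around them were present.

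**Figure D1:**
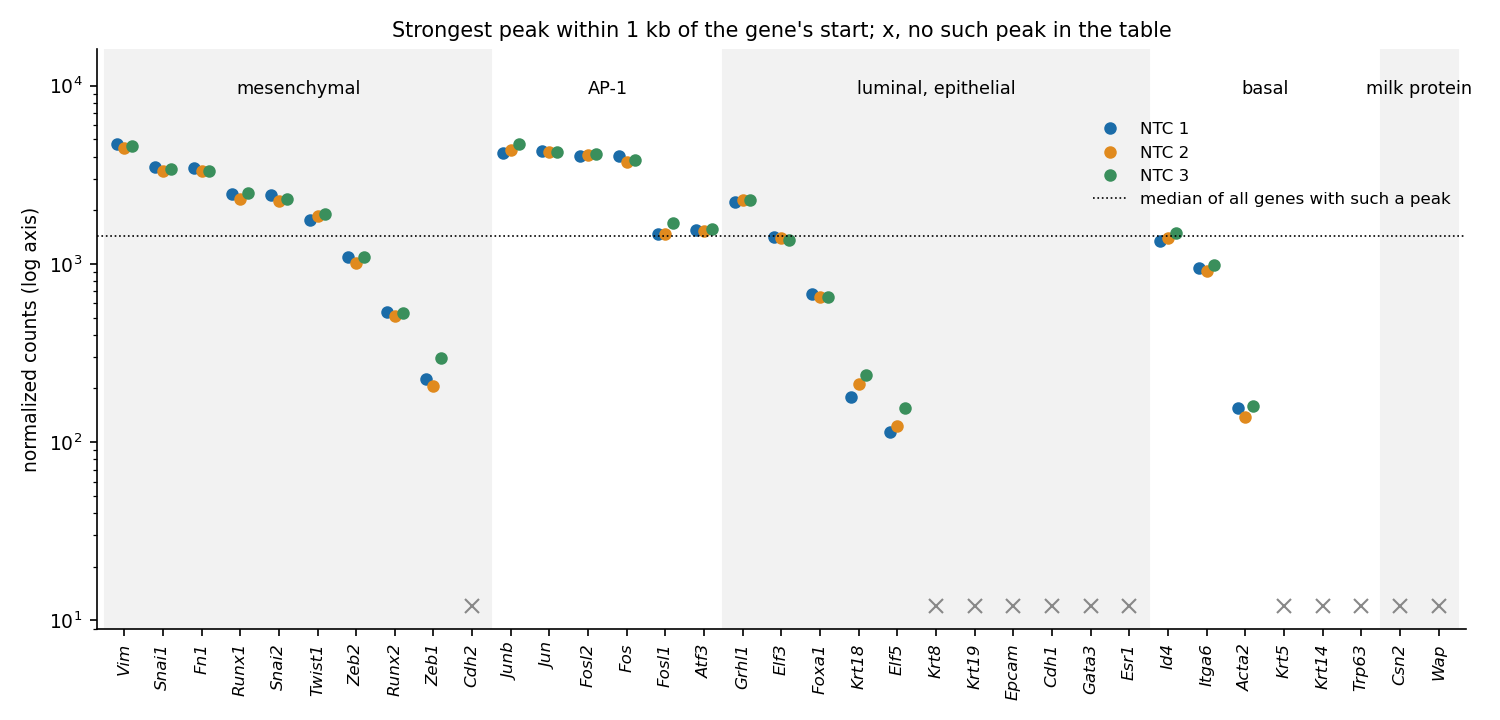
Normalized counts of the strongest peak within 1 kb of the gene's start, on a log axis, for named genes of 5 groups; each point is 1 library, and a cross marks a gene with no such peak in the table, drawn at the bottom without a value. The points of a gene lie close together beside the gaps between genes. Vim, Snai1 and the Jun and Fos genes sit above the dotted median of 1431 for all open genes, and so does Grhl1 of the luminal group. Zeb2, Runx2 and Zeb1 of the mesenchymal group sit below it. Crosses mark Cdh2 of the mesenchymal group and Krt8, Epcam, Cdh1, Krt5, Krt14 and Csn2.

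Most genes of the luminal and epithelial list had no peak within 1 kb of the start. Of its 34 genes, 7 (20.6%) were open at the start, beside 53.0% of all 21627 protein-coding genes. This share depends on the window: it was 11.8% within 500 bases, against 48.4% of all genes, and 47.1% within 2000 bases, against 57.8%. Some genes of the list, such as Krt8, had a peak just beyond 1 kb. The 7 were Grhl1 (2266 ± 34.5 normalized counts, SD, n = 3), Elf3 (1384 ± 27.9), Tfap2a (1003 ± 9.82), Erbb3 (748 ± 60.1), Foxa1 (660 ± 15.3), Krt18 and Elf5 (131 ± 20.9). Grhl1 and Elf3 encode epithelial transcription factors, Foxa1 encodes a factor that opens chromatin in luminal cells, and Elf5 drives the alveolar lineage. Only Grhl1 reached the median of open genes. A further 25 genes of the list had distal peaks only, and Esrp1, an epithelial splicing regulator, and Kit, a receptor of luminal progenitors, had no peak.

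The distal peaks of these epithelial genes covered a wide range. The E-cadherin gene Cdh1 had 10 assigned peaks, the strongest at 966 normalized counts. Epcam had 6, the strongest at 489. The luminal regulator Gata3 had a distal peak of 2081, and the oestrogen receptor gene Esr1 had 1 of 1016. Krt19 and Cldn7 each had a single peak, at 93.4 and 108. These genes were named after their values were seen. Counting any peak at a start or assigned, 32 of 34 genes of the list (94.1%) had at least 1, against 74.9% of all protein-coding genes. This is not a trait of epithelial genes alone, since endothelial and fat cell markers reached 90.9% and neural markers 86.7%.

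Milk and basal genes also had shares below the 53.0% of all genes within 1 kb, and for the basal list the direction turned with the window. Of 10 milk protein genes, 3 (30%) had a start peak: Xdh (1426 ± 35.5), Muc1 (867 ± 42.9) and Btn1a1 (424 ± 5.98), which encode proteins of the milk fat globule and a luminal mucin. The casein genes Csn1s1, Csn1s2a, Csn2 and Csn3 had no assigned peak. Of 22 basal and myoepithelial genes, 8 (36.4%) were open, led by Id4 (1407 ± 74.5), Procr (1142 ± 122), Itga6 (949 ± 38.2) and Lamb3 (200 ± 20.3). Within 2000 bases the basal share was 59.1% against 57.8% of all genes, within 500 bases it was 22.7% against 48.4%, and with only peaks at or above the median of all peaks it was 13.6% against 48.2%. The milk share was 10% within 500 bases, and 14.3% among genes with a listed start. Id4 encodes an inhibitor of helix-loop-helix factors and Procr a receptor found on mammary stem cells. Itga6 and Lamb3 encode proteins that take part in adhesion to the basement membrane. The basal keratin genes Krt5 and Krt14 and the basal factor gene Trp63 had distal peaks only, and Krt15 and Tagln had none.

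The mesenchymal list had a higher share and higher levels than the luminal list. Of its 34 genes, 22 (64.7%, against 53.0% of all genes) were open at the start. Their median was 1538 ± 28.5 normalized counts (SD over libraries, n = 3). It was 1431 ± 24.6 for all open genes and 748 ± 60.1 for the open luminal genes. The median gene length was 31.1 kb in this list and 21.6 kb in the luminal list. Among all genes from 20 to 50 kb, 64.4% were open. Vim, which encodes the filament protein of mesenchymal cells, held 4676, 4440 and 4613. Snai1 held 3500, 3330 and 3404, Fn1, the fibronectin gene, held 3452, 3304 and 3318, and Runx1 had a mean of 2432 ± 95.6. Snai2, like Twist1, had a single peak at its start, at 2445, 2263 and 2309. Zeb2 held 1063 ± 45.1 at its start and Zeb1 only 242 ± 46.6, although Zeb1 had another assigned peak of 3236. The list was not uniform: 12 genes, among them Cdh2, Twist2, Prrx1, Pdgfra, Col3a1 and Mmp14, lacked a start peak, and Mmp3 had no peak. Members outside the 4 strongest were named after their values were seen.

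Genes of AP-1, the dimer of Jun and Fos proteins that answers growth factors and stress, included some of the highest start peaks of all lists. Of 21 genes, 15 (71.4%, against 53.0% of all genes) had a start peak, with a median of 1719 ± 54.7 normalized counts. The 4 strongest were Junb (4173, 4343 and 4728), Jun (4248 ± 36.1), Fosl2 (4084 ± 39.7) and Fos (4021, 3736 and 3839). Fosl1, the Fos relative linked with mesenchymal carcinoma cells, held 1543 ± 124, and Fos alone had 15 assigned peaks. Jund was counted as closed, yet it carried the strongest gene-body peak of the table (6776, 6522 and 6501), centred 1361 bases from its listed start. Mafg, which encodes a small Maf protein, had no assigned peak.

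Hippo signalling limits organ growth by keeping the coactivators YAP and TAZ out of the nucleus. Of 23 genes of this list, 22 (95.7%, against 53.0% of all genes) were open at the start, with a median of 1584 ± 24.3. The target Ccn1 had 4860 ± 125, Wwtr1, which encodes TAZ, had 4057 ± 60.5, the target Amotl2 had 3662 ± 11.4, and Tead4, the DNA-binding partner, had 3160 ± 126. Yap1 itself held 965, 1046 and 983, below the median of open genes. The exception was Ccn2, another well-known target, whose 3 assigned peaks reached only 263.

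In TGF-beta and BMP signalling, ligands bind receptor kinases that activate Smad proteins, and Id genes are classical BMP targets. Of 40 genes, 30 (75%, against 53.0% of all genes) were open, with a median of 1306 ± 19.8, below the 1431 of all open genes. The 3 Id genes Id1 (4210 ± 116), Id2 (3417 ± 77.6) and Id3 (3140 ± 40) and the Smad repressor gene Ski (2874 ± 138) led the list. All 40 genes had at least 1 peak, against 74.9% of all genes. Among the 10 without a start peak were the ligand genes Bmp2, Bmp4, Bmp6 and Bmp7, while the receptor gene Tgfbr1 held 2042 ± 39.0 and Smad3 held 2295 ± 3.03. The ligands, Tgfbr1 and Smad3 were picked after their values were seen.

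Wnt ligands bind Frizzled receptors and stabilize beta-catenin. Of 51 genes, 30 (58.8%) were open, near the 53.0% of all genes, with a median of 1000 ± 31.7. With only peaks at or above the median of all peaks the share was 43.1%, against 48.2% of all genes, so its side was not stable. The strongest were Gsk3b (4993 ± 240), a kinase of the destruction complex, the receptor genes Lgr4 (3237 ± 144), Fzd7 (3049 ± 76.2) and Fzd5 (2996 ± 104). The ligand genes Wnt5a and Wnt16 and the receptor genes Fzd8 and Fzd10 had no assigned peak. The 4 weakest start peaks of this list, from 52.5 to 81.9, were all at ligand genes, Wnt2b, Wnt4, Wnt8a and Wnt7a, which were named after their values were seen.

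Notch receptors are cleaved after binding a ligand on a neighbouring cell. Of 28 genes of this list, 20 (71.4%, against 53.0% of all genes) were open, with a median of 1626 ± 55.8, led by the inhibitor gene Numb (3431 ± 29), the ligand gene Jag1 (3397 ± 18.1), the effector gene Rbpj (2580 ± 47.8) and the protease gene Adam17 (2442 ± 31.7). Notch2 held 2136 ± 79.6 at its start, and Notch1 and Notch3 had distal peaks only, which was noted after the values were seen. All 28 genes had a peak, against 74.9% of all genes.

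Receptor tyrosine kinases bind growth factors at the cell surface. Of 39 such genes, 21 (53.8%) were open, next to 53.0% of all genes and below that of all genes under 3 alternatives, and their median of 871 ± 38.2 was below that of all open genes, 1431 ± 24.6. The collagen receptor gene Ddr1 (2991 ± 76.7), Fgfr1 (2214 ± 57.8), Erbb2 (1968 ± 11.6) and Ror1 (1736 ± 91.3) were strongest. Erbb4, Kit and Ntrk2 had no assigned peak. Egfr had 13 assigned peaks of up to 737 and none at its start, and Alk had 19 of up to 1733, which were named after their values were seen.

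NF-kappaB genes answer inflammatory signals. Of 30 genes, 21 (70.0%, against 53.0% of all genes) were open, with a median of 1546 ± 40.9. Nfkb2 (3553 ± 48.7), a subunit, Csf1 (2577 ± 66.5), a macrophage growth factor, and the inhibitor genes Nfkbia (2285 ± 56.7) and Nfkbib (2088 ± 31.8) were strongest. All 30 had a peak, against 74.9% of all genes.

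Steroid and nuclear receptors are transcription factors switched by small lipophilic ligands. Of 48 genes, 29 (60.4%) were open, near the 53.0% of all genes, with a median of 1356 ± 22.1 against 1431. Esrra (3398 ± 120), Nr1d2 (2985 ± 113), Rxrb (2829 ± 74.6) and Nr2c2 (2816 ± 96.0) led. The peak counted for Rxrb lay nearer to the start of its neighbour Slc39a7. The oestrogen and progesterone receptor genes, Esr1 and Pgr, lacked a start peak, and the glucocorticoid receptor gene Nr3c1 had a weak one (95.2 ± 1.89). These 3 were named after their values were seen. Nr1i3, Hnf4g, Nr0b1 and Nr0b2 had no assigned peak.

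Genes linked with dormancy of disseminated tumour cells were taken as a list because the title of the series names dormancy. Of 31, 21 (67.7%, against 53.0% of all genes) were open, with a median of 1268 ± 41.3 against 1431. Within 500 bases the share was 54.8%, against 48.4% of all genes. Ndrg1 (3656 ± 131), a metastasis suppressor gene, Mapk14 (2948 ± 170), which encodes the p38 kinase, and the cell-cycle inhibitor genes Cdkn1b (2799 ± 90.7) and Cdkn1a (2338 ± 67.8) were strongest. Cxcr4 and its ligand gene Cxcl12 had no assigned peak. The extracellular matrix genes Thbs1 (237 ± 9.33) and Postn (111 ± 5.64) had the lowest start peaks of the list, as seen after the values were known.

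Mediator bridges enhancer-bound factors and RNA polymerase II, and its genes are used in all cells. Of 33, 32 (97.0%, against 53.0% of all genes) were open, with a median of 1411 ± 35.4. The kinase-module gene Cdk19 (3137 ± 108), Med26 (3067 ± 161), Med15 (2845 ± 138) and Med19 (2712 ± 10.2) were strongest, and for Med19 the peak lay nearer to the start of Tmx2. Med4, the subunit in the title of the series, held 691 ± 7.96, and Med1 held 2114 ± 41.3; both were singled out for that reason. Med12l, a paralogue of Med12, lacked a start peak.

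Ribosomal protein genes, which every growing cell uses, serve as a check on missing peaks. Of 75, 73 (97.3%, against 53.0% of all genes) were open, with a median of 1619 ± 95.1, with high levels at Rps21 (5481 ± 57.5), Rpl37 (4273 ± 45.9) and Rpl15 (3550 ± 34.1). For Rpl37 and Rpl15 the peak lay nearer to the starts of Card6 and Nkiras1. Rpl17 had no peak within 1 kb of its start and Rps25 no assigned peak at all. Absence of a start peak from the table thus touched 2 genes even of this list.

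Few marker genes of other lineages were open at their starts, against 53.0% of all genes. The share was 23.3% (7 of 30) for blood cells, 18.2% (4 of 22) for endothelial and fat cells, 16.7% (5 of 30) for neural cells, 13.6% (3 of 22) for liver, 16.7% (4 of 24) for striated muscle and 12.5% (3 of 24) for germ cells. These small counts moved with the window: within 2000 bases the 6 shares ran from 26.7% (neural) to 33.3% (muscle and germ cells), against 57.8% of all genes, and within 500 bases from 4.17% (germ cells) to 13.6% (endothelial and fat cells), against 48.4%. All 6 stayed below the share of all genes in each alternative. Medians of the open starts were low, from 129 ± 10.5 in muscle to 476 ± 26.7 in liver. The highest values were at Prdm9 (2528 ± 172), a meiotic histone methyltransferase gene, Actn3 (2326 ± 17.9), Sox2 (1607 ± 40.2) and Foxa3 (1447 ± 21.8). The peaks counted for Actn3 and Foxa3 lay nearer to the starts of their neighbours Zdhhc24 and Sympk. The blood genes Cd3d, Cd3g, Cd8a and Ms4a1, the endothelial genes Emcn and Sox17, the neural genes Neurog1, Dcx and Pax6, the liver genes Alb, Serpina1a, Cyp3a11 and Cyp7a1, the muscle genes Myf5, Myh4, Myh6 and Myh7 and the germ cell genes Ddx4, Dazl, Sycp2 and Sycp3 had no assigned peak. Counting any peak, the lists fell on both sides of the 74.9% of all genes: blood markers had 53.3% (16 of 30), germ cell markers 54.2%, liver markers 63.6% and muscle markers 66.7%, but neural markers had 86.7% (26 of 30) and endothelial and fat cell markers 90.9% (20 of 22). Spi1 (797 ± 30.1) and Cd68 (773 ± 67.2) were the highest starts of the blood list, and the pan-leukocyte gene Ptprc had no start peak.

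**Figure D2:**
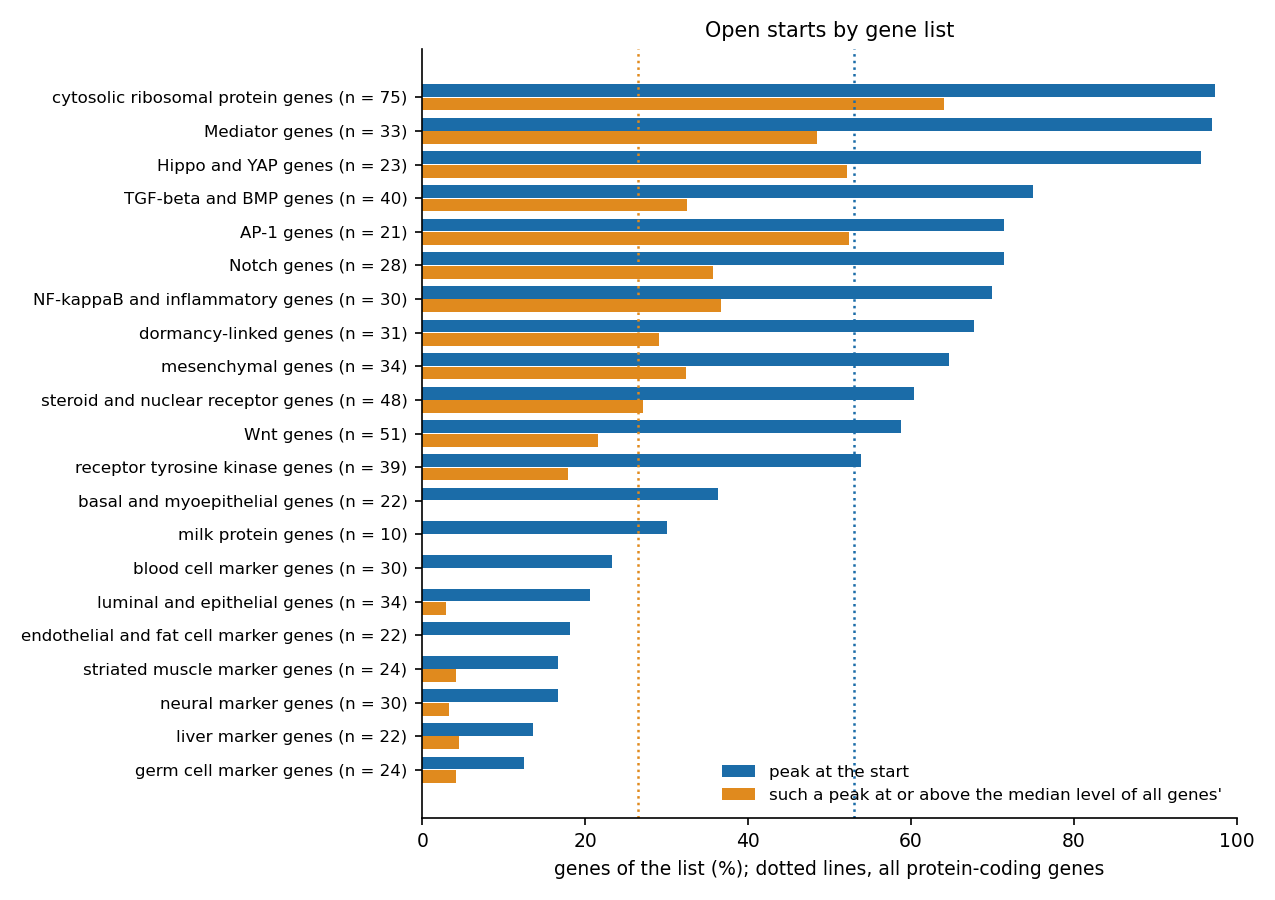
Share of each of 21 gene lists that was open at the start (blue) and open with a peak at or above 1431, the median of all open genes (orange); dotted lines give the same shares over all protein-coding genes, 53.0% and 26.5%. Ribosomal, Mediator and Hippo genes lie above 95%, the mesenchymal and AP-1 lists lie above the blue line, and the luminal list lies among the markers of other lineages at this window of 1 kb; within 2000 bases it is at 47.1% and they are at 26.7% to 33.3%.

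The sequence around the starts was set beside these shares. RefSeq listed 21044 start sites. Of those with 0 or 1 CpG in the window of 300 bases, 5.15% (95% Wilson interval 4.32 to 6.12) had a peak within 1 kb, and of those with 20 to 29 CpGs, 82.1% (80.9 to 83.2) did. The median level of the peak went from 196 ± 12.7 to 1684 ± 29.2 normalized counts between these groups (SD, n = 3), and was 1616 ± 32.1 at 30 or more. In each of the 3 libraries the level was higher in the group with 20 to 29 CpGs than in every group with fewer. The bins were chosen after the values were seen. Of the promoters printed above, Krt18 had 17 CpGs and Twist1 had 27, while Runx2 and Csn2 had 2 each. The part of CpG content in the difference between the luminal and mesenchymal lists was not tested.

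**Figure D3:**
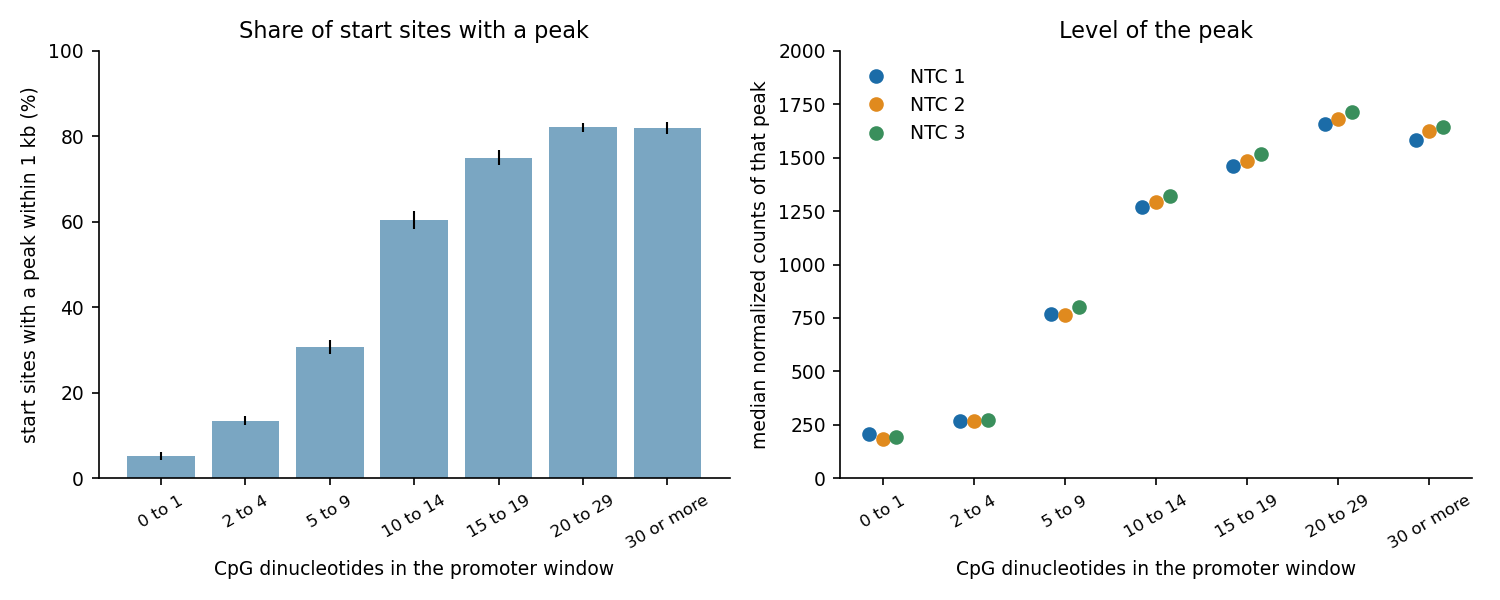
Left, the share of RefSeq start sites with a peak within 1 kb against the number of CpG dinucleotides in the promoter window, with 95% Wilson intervals; right, the median normalized counts of that peak in each library. The share goes from 5.15% to 82.1% and levels off at 20 CpGs and more; the 3 libraries give the same order of groups up to there.

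Short motifs were counted in the same windows, on both strands, as a description of the letters. The start sites fell into 10216 without a peak, 5414 with a peak below the median of open start sites and 5414 with a peak at or above it. The GC box, GGGCGG, was in 23.7%, 54.6% and 68.0% of these groups and in 43.0% of all windows. The ETS motif CCGGAAG was in 3.04%, 12.1% and 17.5% (9.07% of all), and the NRF1 core GCATGCGC in 1.09%, 4.17% and 5.23% (2.95% of all). The cyclic AMP response element TGACGTCA was in 0.891%, 2.53% and 3.34% (1.94% of all). The TATA box, TATAAA, had the reverse order, with 18.1%, 6.85% and 4.38% (11.7% of all). So did the AP-1 motif TGACTCA, with 4.74%, 4.14% and 2.81% (4.09% of all), and the TEAD motif ACATTCC, with 3.47%, 2.64% and 1.96% (2.87% of all). The CCAAT box was in 35.0%, 29.8% and 42.6% (35.6% of all), and the E-box CACGTG in 4.69%, 8.90% and 8.27% (6.70% of all). Median GC content was 50.0%, 60% and 63.3% in the 3 groups, and the motif counts were not corrected for it. The motifs were chosen after the values of these samples were known, and the sequences of distal peaks were not analysed here.

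Start sites were few among the peaks but held the highest levels. Of 75936 peaks, 9173 (12.1%) were centred within 1 kb of a listed start and 2500 (3.29%) within 1 kb of either end of a gene with none. A further 34566 (45.5%) lay inside a gene, 21555 (28.4%) between genes within 50 kb of the nearest, and 8142 (10.7%) farther away. The median start peak held 1348 ± 22.7 normalized counts (SD, n = 3). Medians were 937 ± 17.0 at either end, 162 ± 0.741 in gene bodies, 182 ± 1.92 between genes and 163 ± 0.801 for unassigned peaks. The median of start peaks was 7.95, 8.07 and 8.07 times that of the last 3 classes together in NTC 1, 2 and 3. Start peaks held 32.8 ± 0.383% of all normalized counts, close to the 31.5 ± 0.304% of gene-body peaks, which were more numerous. Of start peaks, 63.9% reached 1000, and of gene-body peaks 9.96% did.

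The peaks at starts were centred on them. Of the 9173, 77.2% lay within 250 bases of the start, the median signed distance was -3 bases, and 51.2% were centred upstream. The far ends gave a contrast over the same set of genes. It held 12209 genes of at least 5 kb whose other end was away from any start. Of these, 7242 (59.3%) had a peak at the start, 1454 (11.9%) at the other end and 1127 (9.23%) at both. The medians, each over the genes with a peak at that end, were 1469 ± 21.8 and 133 ± 3.04 (SD, n = 3). For a gene with several listed starts the strongest start peak was taken. The median of start peaks was the higher in each library, and differences within a gene were not computed.

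**Figure D4:**
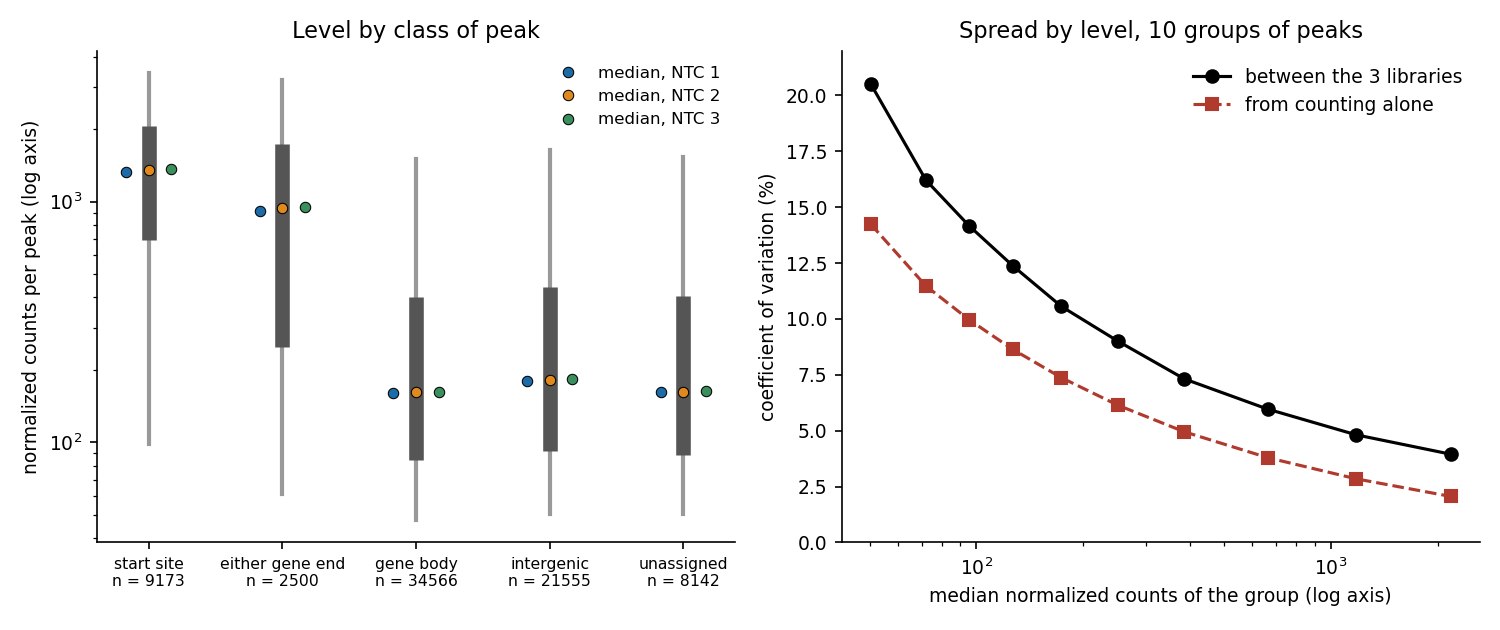
Left, normalized counts per peak by class, on a log axis; thick bars span the middle 50% of peaks, thin bars the middle 90%, and points give the median of each library. Right, the coefficient of variation between the 3 libraries in 10 equal groups of peaks ordered by level, from 20.5% to 3.95%, with the part that counting alone gives; both lines go down with level and the observed line lies above the counting line in all 10.

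The strongest peaks were shared by the 3 libraries. The strongest 1% (759 peaks, from 3466 to 10180) held 7.92%, 7.71% and 7.67% of all normalized counts, and 665 peaks (87.6%) were among the strongest 1% of each library. Of the 759, 430 were at starts, 84 at either gene end, 115 in gene bodies, 106 between genes and 24 unassigned. The highest of all lay between genes, 9011 bases from the start of Def8, a gene for a lysosome-positioning protein (chromosome 8, 123433695 to 123434196), and held 10504, 9980 and 10055. Chromosome 8 also held 9 of the 10 strongest start peaks: Aktip (8688 ± 255), Nutf2 (8287 ± 227), Rfx1 (7866 ± 333), Gatad2a (7188 ± 175), Mt1 (7143 ± 113), Fto (7129 ± 208), Usb1 (7035 ± 99.0), Asf1b (6687 ± 76.0) and Tsnaxip1 (6650 ± 117). The remaining start peak was Sp1 on chromosome 15 (7044 ± 377), whose product binds the GC box. Mt1 encodes a metal-binding metallothionein, Nutf2 a nuclear import factor, Asf1b a histone chaperone and Fto an RNA demethylase. Several of these differ by less than their spread, for example Gatad2a, Mt1 and Fto.

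At genes without a listed start, the highest included the immediate early gene Ier2 (7293 ± 224), Sap130 (7267 ± 190), Mtmr4 (6204 ± 245), Etf1 (5916 ± 128), Ankhd1, Trib1, Ccna2 and Lgals1 (5376 ± 227). Ccna2 encodes cyclin A2, Etf1 a translation release factor and Lgals1 a galectin. Inside genes, Jund was followed by Adgrg1 (6073 ± 284), an adhesion receptor gene, Prkci (5940 ± 465), a polarity kinase gene, Runx2, Spaca6 (5493 ± 211), Ppard, Tjap1, Asap1, Pmepa1 and Rnf14 (5115 ± 69.4). Pmepa1, a negative regulator of TGF-beta signalling, held 5615, 4991 and 4930. Between genes, Def8 was followed by Cacna1a (5911 ± 252), Zswim4, Atp8b4, Atf6b, Nanos3, Clec16a, Tmem230, Ier3 and Pecr (5210 ± 365). The 5 strongest unassigned peaks, on chromosomes 2, 8, 2, 15 and 8, ran from 6044 ± 235 down to 4765 ± 310.

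The weakest peaks stood for a handful of reads. The lowest mean, 5.07, was at an unassigned peak of chromosome 1 (5.37, 2.77 and 7.07), where the lowest value stood for 3 reads. It was followed by peaks near Cd2ap (5.83), at Zxdb (6.85), in Nckap5 (7.08) and at Gm13290 (8.17). At gene sites the weakest were a peak of the X-linked zinc finger gene Zxdb (6.85), Gm13290, a second peak of Zxdb (8.84), Cd83 (21.1), Gm13288 (21.4), Morc1, Olfr545, Chd1, Lrrc75b and Pcdhb4 (28.0). Cd83, Morc1, Chd1, Lrrc75b and Pcdhb4 have no listed start, so these peaks lay at either end of the gene and need not be at its start. Zxdb, the Gm genes, Olfr545 and Pcdhb4 have near-identical or similar copies in the genome, so reads could be split among them and their levels are uncertain. The weakest 10% of peaks had a median of 50.3 normalized counts and a median coefficient of variation of 16.8%, against 3.13% in the strongest 10%.

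Peaks were spread unevenly over genes. Of 21627 protein-coding genes, 15762 (72.9%) had an assigned peak, and the median of these was 3. No peak was assigned to 5865 genes, 1 to 4009, 2 to 4 to 6837, 5 to 9 to 3420, 10 to 19 to 1259, and 20 or more to 237. The 10% of genes with most peaks held 41.9% of assigned peaks. The guanine exchange factor gene Kalrn had the most, 68, and none within 1 kb of a listed start. Fndc3b had 67, the cytolinker gene Dst 57, Nav2 57, Arhgap26 55, the collagen gene Col5a1 55, Arhgap10 54, Camta1 51, Gse1 49, Asap1 48, Trio 48, Foxp1 43, Pakap 43, the actin-binding gene Cald1 42 and Mast4 41. Peaks of Kalrn ran from 39.1 to 2235 with a median of 194, beside 162 for all gene-body peaks.

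The median number of assigned peaks was 0 in genes under 5 kb and 7 in genes of 200 kb or more, and density per 100 kb gave another order. Among genes of at least 50 kb, the fibronectin gene Fn1 had 29.5 peaks inside per 100 kb, Col5a1 29.4, the spectrin gene Sptan1 28.8, Ahnak 28.5 and the plectin gene Plec 28.1. Fn1 and Col5a1 encode extracellular matrix proteins, and both are on the mesenchymal list. Over all genes, peaks inside went from 9.52 per 100 kb in genes under 5 kb to 2.05 in genes of 200 kb or more. The share open at the start was 29.1% under 5 kb, 65.0% from 50 to 100 kb and 41.3% at 200 kb or more. Of 226 genes of at least 500 kb, 50 had no peak inside. The longest genes with no assigned peak were Lrp1b (2058 kb), Fhit (1612 kb), Robo2 (1555 kb), Naaladl2 (1346 kb) and Il1rapl2 (1278 kb). Robo2 and Il1rapl2 are known for roles in neurons, and Fhit and Lrp1b span fragile sites.

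Levels at starts and gene ends also differed between chromosomes, in the same order of the extremes in all 3 libraries. The median peak at a start or gene end was highest on chromosome 8, at 1700, 1730 and 1770 normalized counts (1734 ± 35.3, SD, n = 3), and lowest on X, at 724, 733 and 745 (734 ± 10.4). All chromosomes together gave 1272 ± 20.7. Chromosomes 16 (1616 ± 18.1) and 17 (1610 ± 44.0) came next and did not differ beyond their spread. Medians over peaks of all classes did not follow this order. They were 196.4 on chromosome 8 and 195.7 on X, against 207.7 for all chromosomes. Of the strongest 1% of peaks, 149 (19.6%) were on chromosome 8, which held 6.51% of all peaks, and X held 1 and chromosome 13 held 2. X also had the fewest peaks, 7.02 per Mb of the span of its genes against 39.2 on chromosome 8 and 45.9 on chromosome 11, and 32.4% of its genes were open against 63.0% on chromosome 8.

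The high values of chromosome 8 were not spread along all of it. Of its 149 strongest peaks, 137 lay past 60 Mb, where the median of 490 peaks at starts or gene ends was 1856, against 1291 for 173 before that point. Among 370 windows of 5 Mb with at least 10 such peaks, 21 reached 1.5 times the median of all, and 9 of these were among the 21 windows of chromosome 8. The highest, from 90 to 95 Mb, held 3434 ± 92.4 (SD, n = 3), 2.70 times the median; Aktip, Fto and Mt1 lie in it. Windows and the bound at 60 Mb were chosen after the values were seen. Normalized counts are not divided by the number of DNA copies of a region, which was not measured here, so a level of the whole region and the opening of its single sites cannot be told apart. Genes of chromosome 8 named above, among them Junb, Jund, Ier2 and Mt1, share this. So do genes in high windows elsewhere, such as Prkci on chromosome 3, whose window from 30 to 35 Mb stood at 1.65 times the median. In the lists, Vim, Fos, Twist1 and Snai2 lie on other chromosomes, where DNA copies were not measured either. Their windows of 5 Mb stood at 1.43 (Vim), 1.15 (Fos), 1.15 (Twist1) and 1.38 (Snai2) times the median of all.

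**Figure D5:**
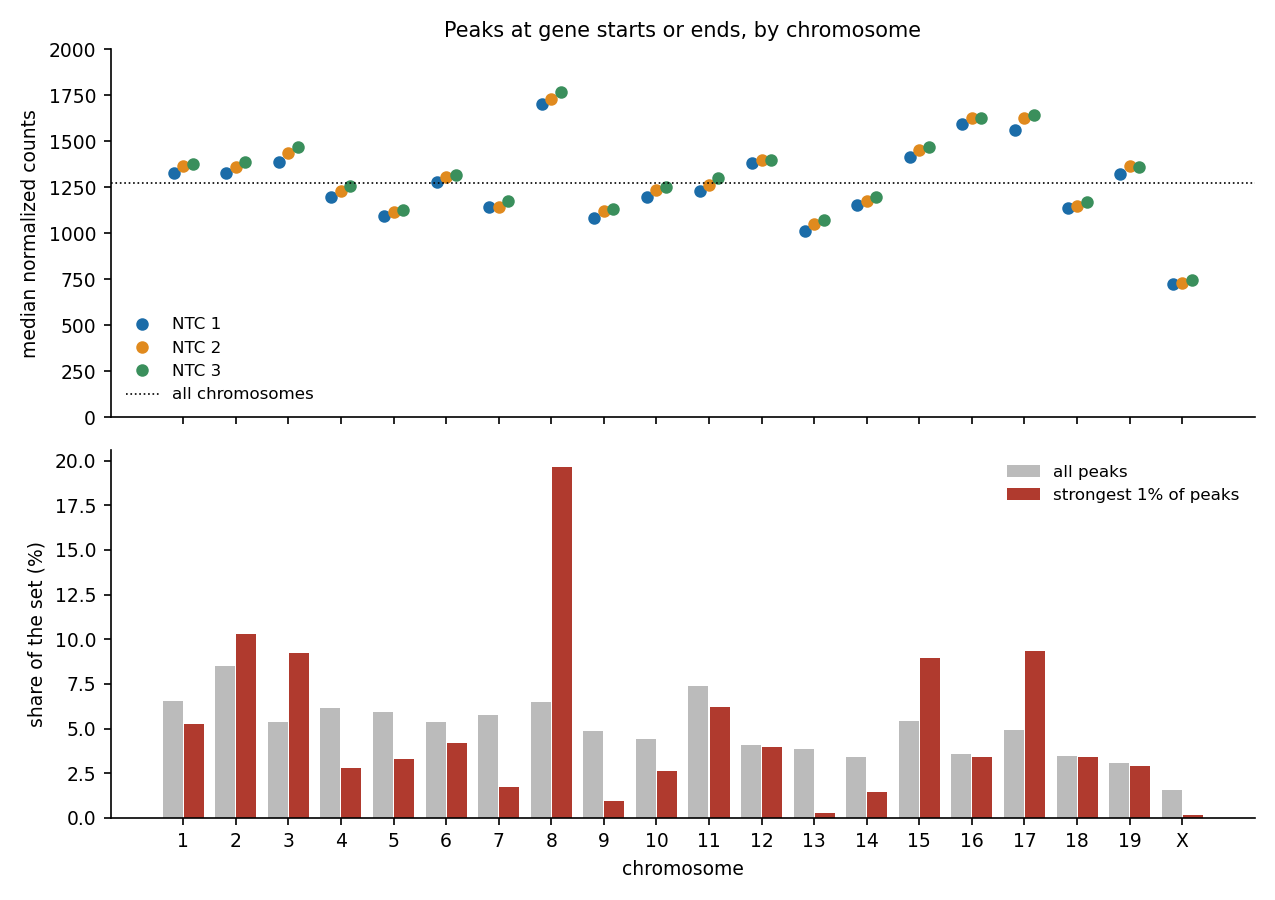
Top, median normalized counts of peaks at gene starts or ends for each chromosome and library, with the median of all chromosomes dotted; bottom, the share of all peaks and of the strongest 1% of peaks on each chromosome. Chromosome 8 has the highest median in each library and 19.6% of the strongest peaks against 6.51% of all peaks, and X has the lowest median.

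The 3 libraries lay close together. Over 75926 peaks with a mean of at least 10, the median coefficient of variation was 7.35%. The pooled value was 11.7%, and counting alone would give 8.07%. Taken as a difference of squares, 8.40% was left beyond counting. In the weakest of 10 groups by level (median 50.3) the pooled value was 20.5% with 14.2% from counting. In the strongest (median 2180) it was 3.95% with 2.06%. Levels under about 100, such as those at Thy1 (59.8 ± 6.96), Lox (69.2 ± 8.75) or Wnt4 (56.5 ± 16.0), thus carry the least certain values. Between pairs of libraries the median fold was 1.08 to 1.09, and 95% of peaks lay within 1.41- to 1.43-fold. A difference of at least 1 on the log2 scale was met in 141 peaks between NTC 1 and 2, 223 between NTC 1 and 3 and 153 between NTC 2 and 3. The most variable peaks of mean 50 or more were weak: one in Nxpe5 held 60.9, 76.5 and 21.2, one near Dicer1 held 78.8, 41.5 and 30.3, one in Ppme1 held 44.8, 40.6 and 93.9, and unassigned peaks of chromosomes 6 and 15 had coefficients of variation of 49.9% and 49.1%. No library stood apart by chromosome, since the median deviation of a library from the mean of the 3 was within 0.0101 on the log2 scale on every chromosome. Deviations were larger by level and class. In the weakest of the 10 groups NTC 1 stood at 0.0469 and NTC 3 at -0.0342. At starts they stood at -0.0174 and 0.0178, and in gene bodies at 0.0136 and -0.00543.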

How the data were processed

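Bulk ATAC-seq of D2A1-d cells was analysed in the 3 NTC libraries; 6 columns of other libraries were not used. Per the submitters' processing notes, the authors used Trim Galore, BWA, MACS2, and featureCounts of Subread, with build mm10 (GRCm38). How duplicates were treated, peaks merged and reads shifted for the transposase, and all versions, are not stated in those notes or in the labels. The table's name says that the authors deposited a signal of normalized counts by peak, and its unit was taken as counts divided by size factors. Peak positions are printed as deposited, and whether they count from 0 or 1 is not stated. All values were whole multiples, within 0.01, of a step per library, which gave size factors from 0.991 to 1.12 and the reads behind each peak. No peak of 1 read was there to check the step, the lowest values standing for 3 reads, so the reads serve only for depth and counting error. Intervals cover counting error only, and reads are not independent molecules.

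Peaks were placed with pandas 2.3.3 and numpy 2.4.6 against 21627 protein-coding genes of RefSeq (GRCm38.p6), 17273 with a listed start. The order was start within 1 kb, either end within 1 kb for genes without one, gene body (the shortest gene), nearest gene within 50 kb, unassigned. All genes of 21 lists matched by symbol. Levels are means ± SD over 3 libraries. No test between groups was made, because there is 1 group; 3 pairs of libraries cannot give a two-sided exact p below 0.25. Scripts were tested on simulated data. The members and lists were chosen with earlier results of these data known. Genes named are the 4 markers, the strongest and weakest peaks of each class (1 per gene), the genes with most, densest and no peaks, the most variable peaks, and, for each list, the 4 strongest starts and up to 4 genes with no assigned peak. A few genes that the rule picks are not reported here. Others are said to be chosen after their values were seen, and the genes of the plot of named genes were chosen so too. Alternatives were the window around starts, the reach to the nearest gene, level minimums, equal totals, the pseudocount and leaving out each library.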

Additional observations from a re-analysis of the deposited data

How the results depend on the processing

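With a window of 500 or 2000 bases in place of 1 kb, 13.3% and 19% of peaks were at a start or gene end (15.4% at 1 kb), the median of start peaks was 8.42 and 7.16 times that of distal peaks (8.03), and 48.4% and 57.8% of all genes were open (53.0%). Taking the nearest gene within 100000 bases left 6.05% of peaks unassigned (10.7% at 50 kb). When only peaks at or above the median of all peaks counted, 48.2% of genes were open; when only peaks with a mean of at least 50 counted, 74.2% of genes had a peak (74.9%). The number of lists with a higher share open than all genes was 12 and ran from 10 to 13; the receptor tyrosine kinase, Wnt and basal lists changed side under at least 1 alternative, and the other 18 lists did not. An alternative with only genes with a listed start was added after seeing the data and gave 11. The median coefficient of variation over pairs of libraries, leaving out each in turn, was 5.43% to 6.34% (7.35% over 3). A median of coefficients from pairs tends to be lower than from 3 values at equal noise. These lower values thus do not show a smaller spread. With each library left out, the ratio of start to distal medians was 8.01 to 8.07. The share of the strongest 1% was then 7.69% to 7.82%. Start and gene-end peaks of chromosome 8 then had a median 1.36 to 1.37 times that of all chromosomes. Equal totals, no minimum and a pseudocount of 5 moved these values by less than the spread between libraries. No paired analysis was possible because only 1 group was described and no result comes from a test. Depth limits the weak peaks: at a median of 50.3 normalized counts, counting alone gives a coefficient of variation of 14.2%.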

Other observations

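Gene families taken by symbol, after the values were seen, filled in the picture of closed and open starts beside the 53.0% of all protein-coding genes. Of 1110 olfactory receptor genes, 12 (1.08%) were open at the start, with a median of 98.7 ± 11.7 normalized counts (SD, n = 3), and of 353 vomeronasal receptor genes 3 (0.850%) were. These are large families with similar copies, so their reads may be split. Of 53 keratin genes, 6 (11.3%) were open: Krt13, Krt16, Krt18, Krt80, Krt81 and Krt86. Of 35 claudin genes, which encode tight-junction proteins, 6 (17.1%) were open, at a median of 111 ± 5.59. Of 39 Hox genes, which set position along the body, 7 (17.9%) were open, and 6 of these were in the Hoxa cluster: Hoxa2, Hoxa3, Hoxa4, Hoxa5, Hoxa6 and Hoxa10; the seventh was Hoxc5.

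Other families fell on both sides of the share of all genes. Mitochondrial ribosomal protein genes were open in 76 of 78 (97.4%), at a median of 1255 ± 39.8, and genes named for proteasome subunits in 35 of 40 (87.5%), at 1440 ± 51.2. Zinc finger genes named Zfp were open in 303 of 397 (76.3%), at 1265 ± 4.81. Solute carrier genes were open in 187 of 375 (49.9%), close to the share of all genes. Potassium channel genes were open in 19 of 94 (20.2%), at 252 ± 5.57, yet 85 of the 94 (90.4%) had some peak, against 74.9% of all genes. Interleukin genes were open in 10 of 37 (27.0%), among them Il6, Il11, Il15, Il18 and Il24.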
